A study of Mus musculus with 8 samples.

Results

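The T cell receptors (TCRs) of CD8+ T cells from the spleen of 2 mice and from tumors of 5 other mice were compared. A cell was counted where its barcode carried no multiplet mark and listed a TCR alpha chain (TRA) and a TCR beta chain (TRB), each with a complementarity-determining region 3 (CDR3). Of 66914 such cells in the 14 deposited tables of the series, 37780 were in these 7 tables, with 4705 from spleen and 33075 from tumor. The other 7 tables hold thymus cells. The spleen tables are those of mouse-155A with 3323 cells and mouse-155C with 1382 cells. The tumor tables, from the fewest cells to the most, are those of mouse-160A with 1812 cells, mouse-160C with 3757, mouse-164B with 5892, mouse-160B with 8331 and mouse-164C with 13283. Every animal carried floxed Pdcd1, the gene of the inhibitory receptor PD-1, and the series holds Pdcd1fl/fl controls as well as Pdcd1 cKO mice, in which Cre driven by the E8I enhancer of Cd8a removes the gene from CD8+ T cells. They were young adult C57BL/6 mice of both sexes. The spleens were taken at baseline from mice without tumor, and the tumors were subcutaneous B16-OVA (a mouse melanoma line that makes ovalbumin) or B16-F10 (its parental melanoma). The labels used here tie no single table to a genotype or a tumor line, so these were not separated. No animal gave both a spleen and a tumor table, so tissue, tumor bearing, animal and the kit used to isolate the cells cannot be told apart in this comparison.

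A TCR is assembled by joining a V and a J gene segment for the alpha chain and a V, a D and a J segment for the beta chain. The joint is the CDR3, the loop that lies over the peptide when a CD8+ T cell reads a target cell. Bases are trimmed and added there at random, so cells with the same CDR3s often descend from 1 rearranged cell. The same CDR3 can also arise in more than 1 cell. CD8+ T cells of the spleen of an unchallenged mouse are largely naive, and a T cell that meets its antigen divides into many cells with the same receptor, which is called clonal expansion. Cells were put in one clonotype where the amino acid sequences of both CDR3s, alpha and beta, were the same.

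Large clonotypes carry much of what sets the tumor tables apart, and nucleotide CDR3s are shown for those that return below. They are the largest clonotype of mouse-155A, mouse-160B and mouse-164C, the next largest of mouse-160A and mouse-160C, from which V genes of those tables take most of their cells, and the 2 largest of mouse-164B, which share a beta chain. The largest of mouse-155C had only 7 cells and are not shown. They are written 5′ to 3′ as deposited in the receptor annotation, with capitals for bases that the alignment assigned to no germline segment.
mouse-155A spleen, 19 cells, TRAV5-1 TRA: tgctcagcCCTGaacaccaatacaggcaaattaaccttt
mouse-155A spleen, 19 cells, TRBV1 TRB: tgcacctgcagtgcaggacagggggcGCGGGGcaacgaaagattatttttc
mouse-160A tumor, 206 cells, TRAV14-3 TRA: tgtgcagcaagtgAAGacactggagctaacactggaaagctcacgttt
mouse-160A tumor, 206 cells, TRBV23_1 TRB: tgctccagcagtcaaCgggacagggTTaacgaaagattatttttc
mouse-160B tumor, 136 cells, TRAV5-4 TRA: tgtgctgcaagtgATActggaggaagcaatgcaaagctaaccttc
mouse-160B tumor, 136 cells, TRBV29 TRB: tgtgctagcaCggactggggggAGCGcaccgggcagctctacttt
mouse-160C tumor, 318 cells, TRAV6-5_1 TRA: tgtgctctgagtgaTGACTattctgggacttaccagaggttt
mouse-160C tumor, 318 cells, TRBV2 TRB: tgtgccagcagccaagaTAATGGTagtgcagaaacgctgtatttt
mouse-164B tumor, 647 cells, TRAV3-3_1 TRA: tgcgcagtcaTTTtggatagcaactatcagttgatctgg
mouse-164B tumor, 361 cells, TRAV12-1_1 TRA: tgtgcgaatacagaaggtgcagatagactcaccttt
mouse-164B tumor, both clonotypes, TRBV13-1_1 TRB: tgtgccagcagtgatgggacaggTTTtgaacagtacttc
mouse-164C tumor, 827 cells, TRAV3-1 TRA: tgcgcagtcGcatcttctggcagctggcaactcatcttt
mouse-164C tumor, 827 cells, TRBV20 TRB: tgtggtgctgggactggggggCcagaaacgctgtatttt
Between 0 and 7 bases of each were assigned to no segment.

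With 2 tables against 5, an exact permutation test over tables has 21 arrangements and cannot give a two-sided p below 0.0952, so no p is given. Values are set out per table, and 2 tissues are called apart where both spleen tables lie above, or both below, all 5 tumor tables. If the tissue labels were dealt at random over the tables, a feature without ties would be apart with a probability of 0.0952. The shares of genes, lengths and residues apart given below are to be read beside that rate, and single features named as apart may be due to it. The tables differed in depth and in quality. Barcodes with both chains numbered 1442 and 3602 in spleen and 2613 to 20717 in tumor, and 4.16% and 7.75% of them carried a multiplet mark in spleen against 30.7% to 35.9% in tumor. The part of this gap in the results was not tested. Clonotype diversity, mean CDR3 length, TRB core charge and hydropathy, transcripts, counts of V and J genes apart and TRBV distances were recomputed with the marked barcodes kept, and the other values were not. The tables hold receptors only, so the tissue labels could not be checked against other genes. No chain of a gamma, delta or immunoglobulin locus was listed, and no cell paired TRAV1 with TRAJ33, the alpha chain of mucosal-associated invariant T cells. Cells pairing TRAV11 with TRAJ18, the invariant alpha chain of natural killer T (NKT) cells, numbered 7 and 11 in the spleen tables, or 0.211% (95% exact binomial interval 0.0847 to 0.434) and 0.796% (0.398 to 1.42). They made up 0% to 0.186% of the tumor tables, so the tissues were apart, and the 0 of mouse-160A allows up to 0.203%. The highest tumor table, mouse-160C with 7 cells, had an interval of 0.0749 to 0.384 and lay close to mouse-155A spleen, so the gap rests on few cells. All intervals cover counting error only.

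Clonotypes were larger in tumor than in spleen. All tables were brought to the depth of the shallowest, 1382 cells, by computing the expected outcome of drawing that many cells at random. The expected number of distinct clonotypes was then 1375 in mouse-155A and 1332 in mouse-155C spleen, against 385 in mouse-160A, 536 in mouse-160C, 840 in mouse-164B, 1139 in mouse-164C and 1235 in mouse-160B tumor. The tissues were apart, and the tumor tables differed more among themselves than the nearest of them differed from the spleen. Cells alone in their clonotype made up 99.4% and 94.6% in spleen at this depth. In tumor they made up 21.6% in mouse-160A, 33.5% in mouse-160C, 55.3% in mouse-164B, 80.5% in mouse-164C and 85.4% in mouse-160B. The difference between the medians of the tissues was -41.7 percentage points. The tissues stayed apart in all 28 alternative settings in which this share was computed. In 7 of these a table was left out, which cannot make ranges that are apart meet, so their outcome was fixed in advance.

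**Figure D1:**
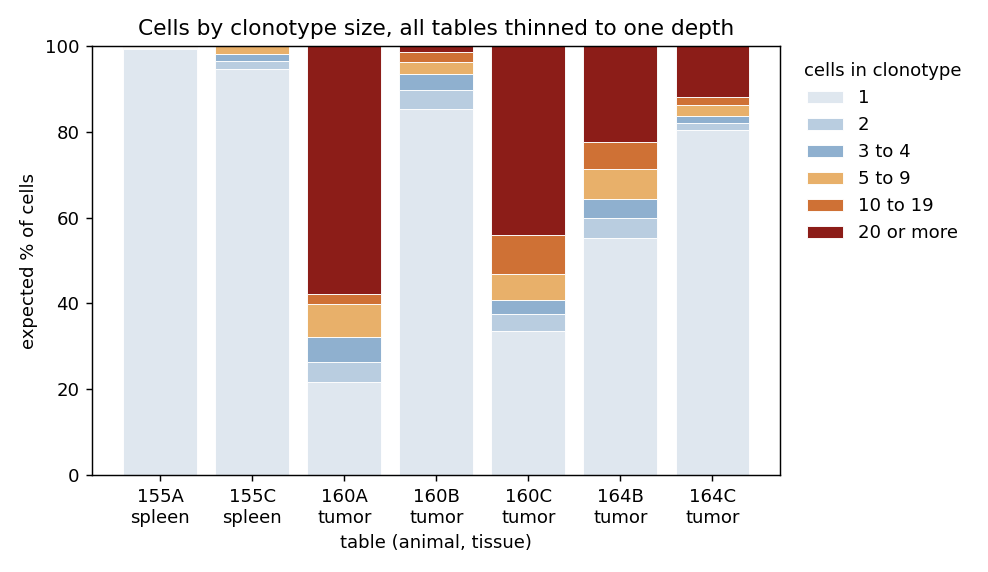
Expected percent of cells (vertical axis) in clonotypes of each size (colours) for each of the 7 tables (horizontal axis) after thinning to 1382 cells. Clonotypes of 20 or more cells take 1.43% to 57.9% of the cells of tumor tables and none of those of the spleen tables.

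At this depth, clonotypes of 20 or more cells held 57.9% of the cells of mouse-160A tumor, 44.0% in mouse-160C, 22.5% in mouse-164B, 11.9% in mouse-164C and 1.43% in mouse-160B, and 0% in both spleen tables. The shape of the spectrum also differed within the tumor tables. Mouse-164C had nearly as many single cells as mouse-160B, but its remaining cells lay mostly in large clonotypes, while those of mouse-160B were spread over sizes of 2 to 19 cells. On average over 500 random draws, 683 and 641 clonotypes were needed to cover 50% of the spleen cells. In tumor the number was 7.01 clonotypes in mouse-160A, 15.9 in mouse-160C, 149 in mouse-164B, 448 in mouse-164C and 545 in mouse-160B. The inverse Simpson number, which is the number of equally large clonotypes that would give the same chance of drawing a pair of cells of one clonotype, was 31721 and 8918 in spleen and 21.3, 35.9, 54.8, 137 and 1498 in tumor in that order. The tissues were apart, but this number rests on few repeated clonotypes in the spleen, and the difference of the medians moved from -20265 to -8864 without mouse-155A and to -31667 without mouse-155C.

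Without thinning, the spleen tables held 1 and 4 clonotypes of at least 5 cells, and the tumor tables held 34 to 86. The largest spleen clonotype of mouse-155A had 19 cells, 0.572% of its table (0.345 to 0.891), and the next had 2. In mouse-155C, 2 clonotypes of 7 cells were largest. The largest tumor clonotypes had 136 cells in mouse-160B, or 1.63% (1.37 to 1.93), 225 in mouse-160A, or 12.4% (10.9 to 14.02), 356 in mouse-160C, or 9.48% (8.56 to 10.5), 647 in mouse-164B, or 10.98% (10.2 to 11.8), and 827 in mouse-164C, or 6.23% (5.82 to 6.65). Each of these 5 was seen in all 8 sublibraries, the pools into which barcoded cells were split before sequencing.

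Some pairs of large tumor clonotypes listed each other's chains. In mouse-164B the largest clonotypes, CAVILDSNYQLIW with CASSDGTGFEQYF and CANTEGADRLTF with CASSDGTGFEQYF, had the same beta chain. Of the 647 cells of the first, 549 (84.9%) listed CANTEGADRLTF as a second, less abundant alpha chain, and of the 361 cells of the other, 322 (89.2%) listed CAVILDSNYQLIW. Together these 1008 cells were 17.1% of the table, and 871 of them carried both alpha chains. T cells may carry a second rearranged alpha chain, since that locus is not silenced after its first joining. The same held for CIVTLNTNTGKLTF and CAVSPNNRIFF with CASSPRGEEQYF in mouse-160C, where 128 of 161 and 24 of 38 cells listed both. In mouse-164C, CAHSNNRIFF and a TRA of 16 residues shared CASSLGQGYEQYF, and 56 of 70 and 19 of 26 cells listed both. Exchanged roles were seen as well, with 1 alpha chain and a pair of beta chains: 44 of 55 cells in mouse-164B and 95 of 132 in mouse-164C listed both. Of 8 pairs of clonotypes of 20 or more cells that shared a chain, these 5 did so with both chains in most of their cells, and in the other 3 at most 4.88% of cells did. These pairs were noticed after their values were seen. Joining such clonotypes changed the median difference in distinct clonotypes from -513 to -518.

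In the most used V genes the tissues overlapped, and the tumor tables ranged more widely than the spleen tables. TRAV12-1_1, TRAV3-1 and TRAV9D-3 were the most used alpha chain V genes. TRAV12-1_1 was used by 9.81% and 10.2% of spleen cells, by 2.16% of cells in mouse-160C tumor and by 9.95% to 15.4% in the other 4, of which 3 were above both spleen tables. TRBV13-2, TRBV12-1 and TRBV13-1_1 led among beta chains. TRBV13-2 was used by 10.8% and 12.6% of spleen cells and by 8.27% to 22.6% of tumor cells. In all 6 genes the ranges of the tissues overlapped.

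Few V genes were apart, and their shares lay around the random rate of 0.0952 given above. Those that were apart by cells were all higher in spleen. By cells, where a gene was counted if its median over the 7 tables reached 1%, 3 of 28 TRAV genes were apart (10.7%), as were 3 of 19 TRBV genes (15.8%). By clonotypes, where each distinct clonotype of the thinned table counts once, 4 of 31 TRAV genes (12.9%) and 1 of 19 TRBV genes (5.26%) were apart. TRAV14D-1_1 and TRAV7D-3 were apart both ways. TRAV14D-1_1, a V segment at chr14:53093071-53093623 on the plus strand of GRCm39, was used by 4.75% and 5.28% of spleen cells and by 0.717% in mouse-160A tumor, 1.49% in mouse-160C, 2.09% in mouse-164B, 3.76% in mouse-164C and 4.05% in mouse-160B. Its tumor median was 0.416 of its spleen median by cells and 0.685 by clonotypes, where the values were 4.78% and 5.48% against 2.24% to 3.92%. TRAV7D-3, at chr14:52981706-52982297 on the plus strand, was used by 1.59% of cells in both spleen tables and 0.110% to 1.15% in tumor, and by 1.60% and 1.65% of clonotypes against 0.397% to 1.39%. TRBV19 was the V gene that was higher in all tumor tables by clonotypes, with 2.70% and 3.39% in spleen against 3.52% to 4.71%, but not by cells. Duplicated TRAV copies are nearly identical in sequence, so reads of TRAV14D-1_1 and TRAV7D-3 may have been split among copies. With TRAV copies merged, 6 V genes were apart by cells, and 3 instead of 5 were apart by clonotypes. The counts depended on the tables: without mouse-155A, 10 V genes instead of 6 were apart by cells and 16 instead of 5 by clonotypes, and without mouse-155C 10 were apart by clonotypes. Leaving out 1 tumor table gave 5 to 9 by clonotypes.

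For each tumor table, the TRAV and the TRBV gene with the highest ratio of its share there to the higher spleen share were picked, and some of them were as high in another tumor table. TRAV14-3, at chr14:54000630-54001151, was used by 17.4% of cells in mouse-160A and by 0.825% to 2.09% in every other table, and TRBV23_1, at chr6:41193007-41193460, by 11.5% there and by at most 0.519% elsewhere. TRAV6-5_1, at chr14:53728572-53729079, was used by 12.9% of cells in mouse-160C and 0.110% to 2.89% elsewhere, and TRBV2, at chr6:41024274-41024929, by 10.99% there. TRAV3-3_1, at chr14:53903386-53903963, was used by 15.2% of cells in mouse-164B, and TRBV13-1_1, at chr6:41092941-41093402, by 23.6% there and 26.0% in mouse-160A, against 7.64% and 8.25% in spleen. TRAV3-1, at chr14:52818122-52818670, took 13.9% of cells in mouse-164C, and TRBV20, at chr6:41165207-41165911, 7.55%. In mouse-160B the genes chosen the same way, TRAV5-4 with 5.04% and TRBV29 with 9.19%, were 1.51 and 1.27 times the higher spleen share, and TRBV29 was higher still in mouse-164B, with 9.74%. These genes were chosen for their cell shares, so the shares are a description.

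**Figure D2:**
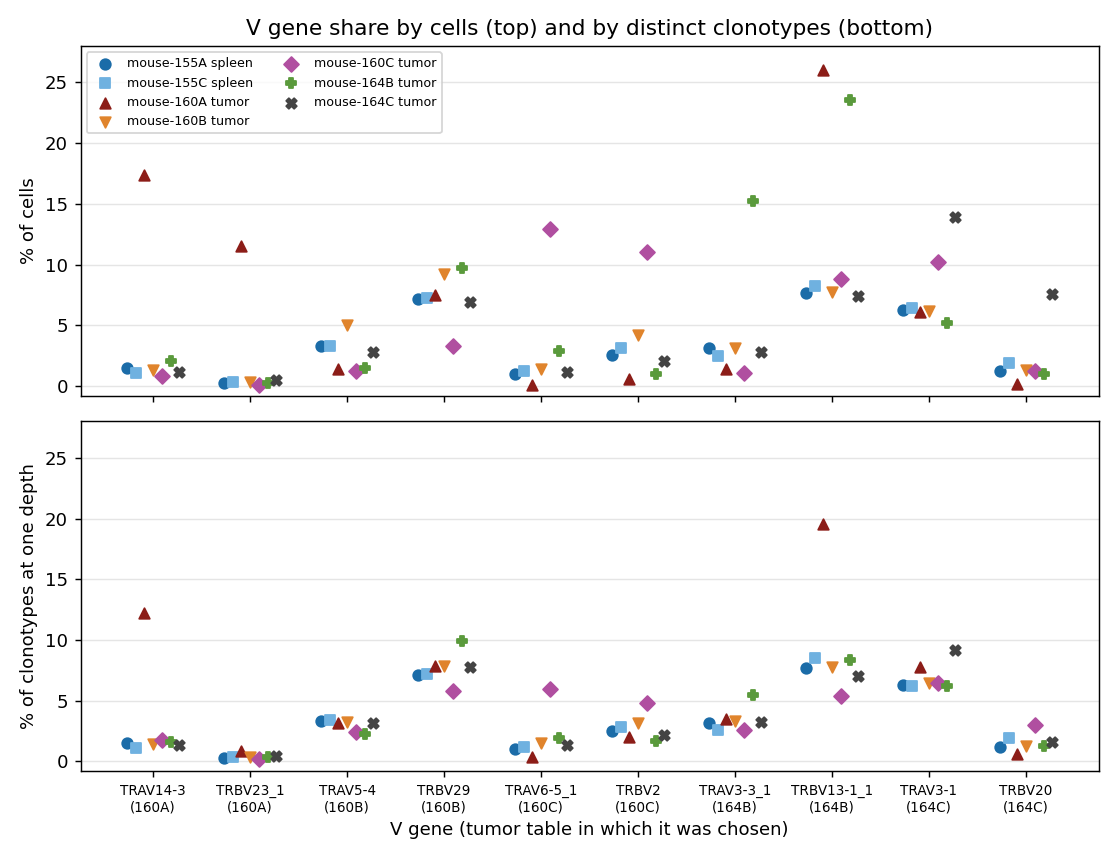
Share of each V gene (vertical axis, percent) in the 7 tables (symbols), by cells in the upper panel and by distinct clonotypes at 1382 cells in the lower panel, for the 10 genes chosen from the tumor tables named under them. Most of the high points of the upper panel are lower in the lower one, as for TRBV23_1 in mouse-160A, with 11.5% of cells.

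One clonotype supplied most cells of 6 of these 10 genes. In mouse-160A a clonotype of 206 cells made up 65.4% of the TRAV14-3 cells and 98.6% of the TRBV23_1 cells. In mouse-160C a clonotype of 318 cells made up 65.4% of the TRAV6-5_1 cells and 77.0% of the TRBV2 cells. The largest clonotype of mouse-164B made up 72.3% of the TRAV3-3_1 cells and 46.6% of the TRBV13-1_1 cells. The next largest there, with 361 cells, has the same TRBV13-1_1 chain, and clonotypes of 20 or more cells held 77.4% of the TRBV13-1_1 cells. The largest clonotype of mouse-164C made up 82.5% of the TRBV20 cells and 44.7% of the TRAV3-1 cells. In mouse-160B the corresponding shares were 32.4% for TRAV5-4 and 17.8% for TRBV29. The CDR3s of these clonotypes are those printed above.

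Counting each clonotype once did not remove all of these departures. TRAV14-3 still made up 12.1% of the 371 single-cell clonotypes of mouse-160A. However, 43 of the 45 single cells with TRAV14-3 there held an alpha or beta CDR3 that a clonotype of at least 5 cells in the same table also held, and among the 207 single-cell clonotypes that held no such chain, TRAV14-3 made up 0.966%. In mouse-160C this held for 49 of 54 single cells with TRAV6-5_1, whose share was 4.92% of all single-cell clonotypes and 0.727% of those without such a chain. In mouse-164C it held for 391 of 929 single cells with TRAV3-1, whose share was 9.04% with and 5.80% without them. Among the other chosen genes, TRBV23_1 in mouse-160A went from 0.809% to 0% and TRAV5-4 in mouse-160B from 3.15% to 3.16%. These genes were chosen for shares that large clonotypes raise, and leaving out cells with their chains takes out cells of the gene by construction. A lower share without them therefore does not show that the rest of the table matches the spleen. A chain of such a large clonotype was found in 44.2% (39.1 to 49.4) of the single-cell clonotypes of mouse-160A, 37.3% (34.5 to 40.3) in mouse-160C, 12.9% (11.7 to 14.1) in mouse-164B, 9.70% (9.13 to 10.3) in mouse-164C and 5.36% (4.82 to 5.93) in mouse-160B. In the spleen tables it was found in 0.0303% (7.68e-04 to 0.169) and 1.38% (0.818 to 2.17), where only 1 and 4 clonotypes were that large. How such cells arose was not tested. Without them, the tissues remained apart in distinct clonotypes, with a difference of the medians of -547.

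J gene use showed the same picture. TRAJ22, TRAJ30 and TRAJ23 led among alpha J genes and TRBJ2-7, TRBJ2-1 and TRBJ1-1 among beta J genes. TRBJ2-7 was used by 19.2% and 19.8% of spleen cells and 10.9% to 30.9% of tumor cells, a range that includes the spleen. By cells, 6 of 35 TRAJ genes (17.1%) and 0 of 12 TRBJ genes (0%) were apart, all 6 higher in spleen. By clonotypes, 3 of 36 TRAJ genes (8.33%) and 1 of 12 TRBJ genes (8.33%) were apart. TRAJ17 and TRAJ40 were apart both ways. TRAJ17, at chr14:54439232-54439294, was used by 2.799% and 2.39% of spleen cells and by 0.276% to 1.69% of tumor cells, and by 2.81% and 2.25% of clonotypes against 0.991% to 2.04%. TRAJ40, at chr14:54415378-54415438, was used by 3.76% and 3.18% of spleen cells and 0.993% to 2.68% of tumor cells, and by 3.78% and 3.30% of clonotypes against 2.18% to 2.91%. By clonotypes TRAJ27 was higher in all tumor tables, with 2.77% and 1.73% in spleen against 2.92% to 4.83%, and TRBJ1-1 was lower, with 11.5% and 12.01% against 7.28% to 11.4%. Without mouse-155A, 13 J genes were apart by clonotypes instead of 4, and without mouse-155C, mouse-160C or mouse-164B 8, 7 and 8 were.

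By the medians over pairs of tables, the V gene profiles of tumor tables lay farther from each other than from the spleen. The Jensen-Shannon distance, which is 0 for equal profiles and 1 for profiles with no gene in common, was 0.0775 for TRBV between the spleen tables by cells. Over the 10 spleen-tumor pairs its median was 0.225 with a range of 0.0849 to 0.447, and over the 10 tumor-tumor pairs it was 0.350 with a range of 0.184 to 0.487. By clonotypes the corresponding values were 0.0758, 0.0925 (0.0655 to 0.239) and 0.168 (0.0662 to 0.287). TRAV distances by cells were 0.113 between the spleens, with medians of 0.282 for spleen-tumor and 0.482 for tumor-tumor pairs, and by clonotypes they were 0.103, 0.139 and 0.237. TRAJ and TRBJ had the same order by cells, with tumor-tumor medians of 0.466 and 0.265 and spleen-tumor medians of 0.298 and 0.136. By clonotypes the TRBJ distance between the spleens was 0.0450, with medians of 0.0437 for spleen-tumor and 0.127 for tumor-tumor pairs. Some pairs departed from the order of the medians. For TRBV by clonotypes, mouse-160B, mouse-164B and mouse-164C lay 0.0662 to 0.0899 from each other. They lay 0.0655 to 0.0949 from the spleens, so these tables showed no such order. Pairs with mouse-160A or mouse-160C were farther apart, at 0.151 to 0.287 among tumors and 0.167 to 0.239 to the spleens. For TRBV by cells, mouse-160A was 0.351 from mouse-164B tumor but 0.447 and 0.435 from the spleens. These pairs share tables and are not independent of each other.

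**Figure D3:**
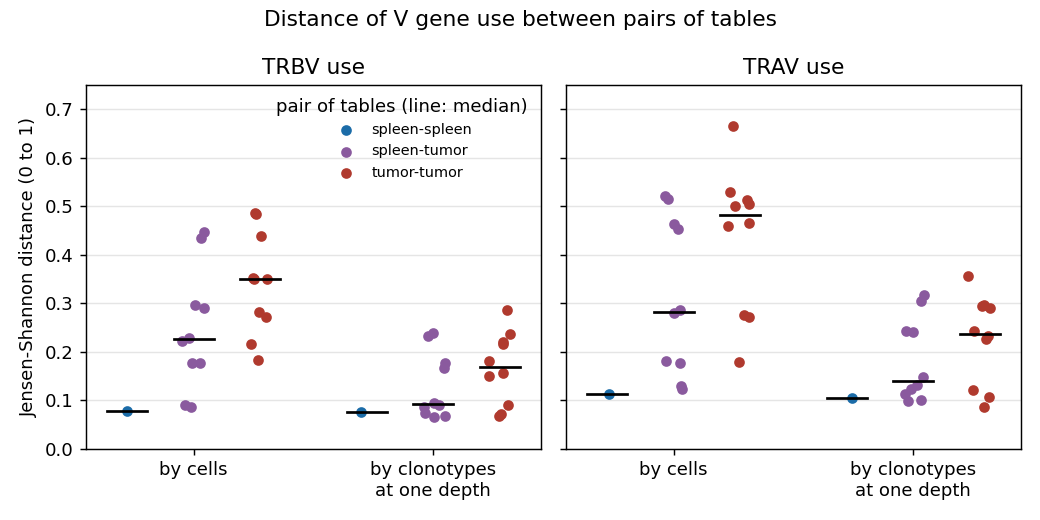
Jensen-Shannon distance (vertical axis, 0 to 1) of TRBV (left) and TRAV (right) use for each pair of tables (points), by cells and by clonotypes at 1382 cells, with black lines for medians. Tumor-tumor pairs have the highest medians, 0.350 for TRBV by cells, and the medians are lower by clonotypes.

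Mean CDR3 lengths overlapped between the tissues. The mean TRA CDR3 had 13.55 amino acids by cells in both spleen tables and 13.4 to 14.2 in tumor. The mean TRB CDR3 had 13.9 in both spleen tables and 13.5 to 13.96 in tumor. By clonotypes the difference of the tissue medians was 0.060 amino acids for TRA and -0.0051 for TRB, against SDs between tables of one tissue of 0.097 and 0.10. For TRA the tissues were apart in 7 of 28 alternative settings, and for TRB in none. By cells, tumor tables had peaks at single lengths. CDR3s of 16 residues made up 38.96% of TRA in mouse-160A against 5.81% and 7.53% in spleen, and those of 14 residues 57.3% of TRA in mouse-160C against 31.1% and 28.9%. Among TRB, 13 residues made up 38.8% in mouse-164B against 18.6% and 17.3%, and 15 residues 41.9% in mouse-160C against 20.6% and 21.3%. By clonotypes these shares were 20.6% for 16 residues in mouse-160A, 39.7% for 14 in mouse-160C, 20.1% for 13 in mouse-164B and 26.9% for 15 in mouse-160C. The TRAV14-3 chain of 206 cells printed above has 16 residues and the shared TRB of mouse-164B has 13. The TRA of the largest clonotype of mouse-160A, with 225 cells, also has 16 residues.

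**Figure D4:**
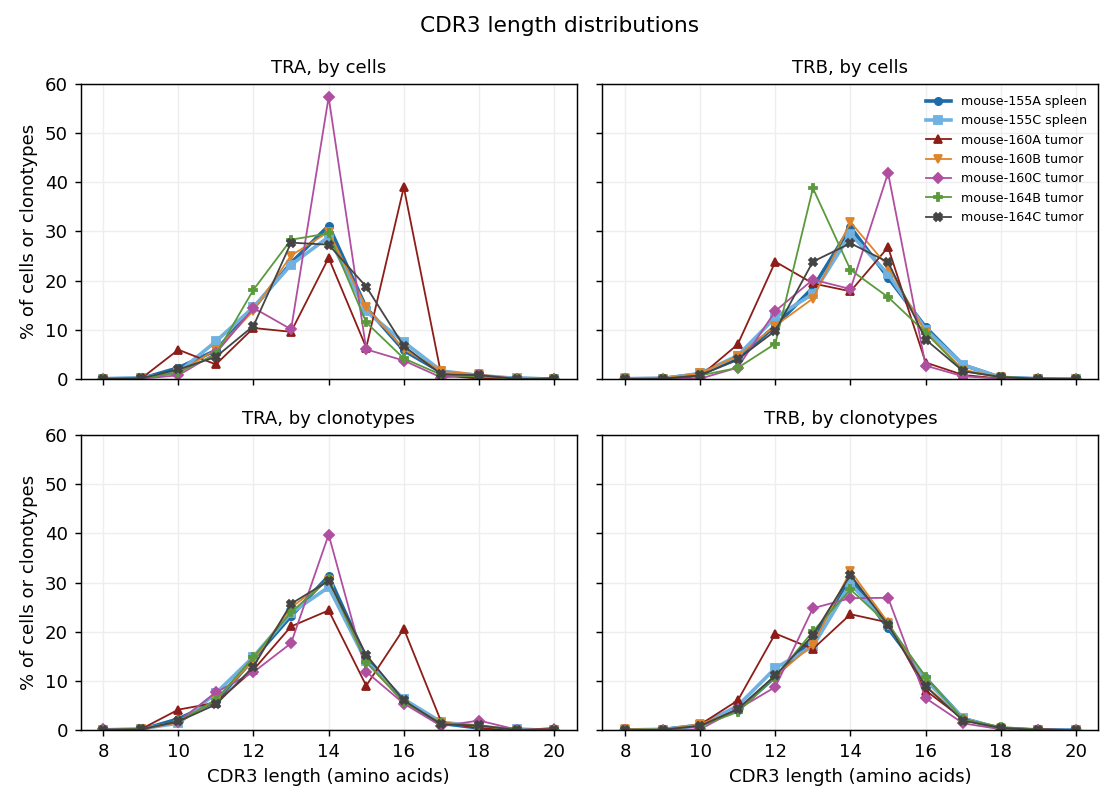
Percent of cells (upper panels) or of clonotypes at 1382 cells (lower panels) by CDR3 length in amino acids for TRA (left) and TRB (right), 1 line for each of the 7 tables. Tumor peaks by cells, such as 57.3% at 14 residues of TRA in mouse-160C, are lower by clonotypes, and the spleen curves lie among the rest.

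Over the 13 lengths from 8 to 20 residues, 1 was apart for TRA by cells (7.69%) and 1 by clonotypes (7.69%), and for TRB 2 by cells (15.4%) and 1 by clonotypes (7.69%), all higher in spleen. TRA CDR3s of 19 residues were apart both ways but rare, at 0.181% and 0.145% of spleen cells and 0% to 0.0849% of tumor cells. TRB CDR3s of 17 residues made up 2.86% and 2.89% of spleen cells and 0.559% to 1.897% of tumor cells. By clonotypes they made up 2.37% and 2.40% against 1.39% to 2.30%, so the tissues were apart both ways, and the gap by clonotypes between mouse-155A spleen and mouse-160A tumor was small. TRB CDR3s of 16 residues were apart by cells, with 10.5% and 10.1% against 2.71% to 9.47%, but not by clonotypes, and those of 18 residues overlapped both ways.

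The residues in the middle of the CDR3, after leaving out 3 at each end, were also close. For TRA, 2 of 20 residues were apart by cells (10%) and 1 of 20 by clonotypes (5%), and for TRB 3 of 20 (15%) and 1 of 20 (5%). Threonine in TRA was apart both ways. It made up 6.36% and 6.00% of the TRA core residues of spleen cells and 6.62% to 9.13% of those of tumor cells, and by clonotypes 6.26% and 6.04% against 6.29% to 8.71%. Mouse-155A spleen and mouse-164C tumor were nearly equal by clonotypes. The mean net charge of the TRB core by clonotypes was -0.841 and -0.863 in spleen and -0.853 to -0.754 in tumor, and its mean hydropathy was -1.26 and -1.22 against -1.27 to -1.18, so both overlapped.

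Tumor cells yielded more transcripts of both chains. The mean number of TRA transcripts per cell was 1.99 and 1.88 in spleen and 4.94 in mouse-160A, 4.501 in mouse-160C, 3.58 in mouse-164B, 3.04 in mouse-164C and 2.94 in mouse-160B tumor. The mean number of TRB transcripts was 2.41 and 2.35 in spleen and 7.23, 5.32, 4.22, 3.43 and 4.06 in tumor in the same order. Cells with a single transcript of each chain made up 20.975% and 22.5% in spleen and 5.68% to 15.7% in tumor. The tissues were apart in all 3 measures. Reads per transcript overlapped, with medians for TRA of 77.2 and 73.0 in spleen and 63.2 to 95.1 in tumor. For TRB the medians were 48.0 and 52.5 in spleen, 48.0 in mouse-164C tumor and 68.5 to 100 in the other tumor tables.

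Transcripts were more numerous in larger tumor clonotypes. In cells of clonotypes of 20 or more, the mean was 5.33 to 7.10 for TRA and 5.42 to 8.49 for TRB over the 5 tumor tables. In tumor cells alone in their clonotype it was 2.22 to 3.25 for TRA and 2.67 to 4.30 for TRB. The spleen tables had 1.99 and 1.89 for TRA and 2.41 and 2.34 for TRB in such cells, so the tissues remained apart, although the difference of the medians was 0.46 instead of 1.64 for TRA and 0.86 instead of 1.84 for TRB. The shares of single cells with 1 transcript of each chain overlapped, at 20.95% and 22.3% in spleen and 16.8% to 23.0% in tumor. In mouse-155C spleen, cells of clonotypes of 5 to 19 cells had a mean of 1.2 TRA and 2.24 TRB transcripts over 25 cells. The clonotype of 19 cells in mouse-155A spleen had a mean of 1.68 TRA and 2.68 TRB transcripts, against 1.99 and 2.41 in the single cells of that table. With at least 2 transcripts of each chain required, the depth fell to 409 cells, and the tissues remained apart in distinct clonotypes, with a difference of the medians of -183.

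**Figure D5:**
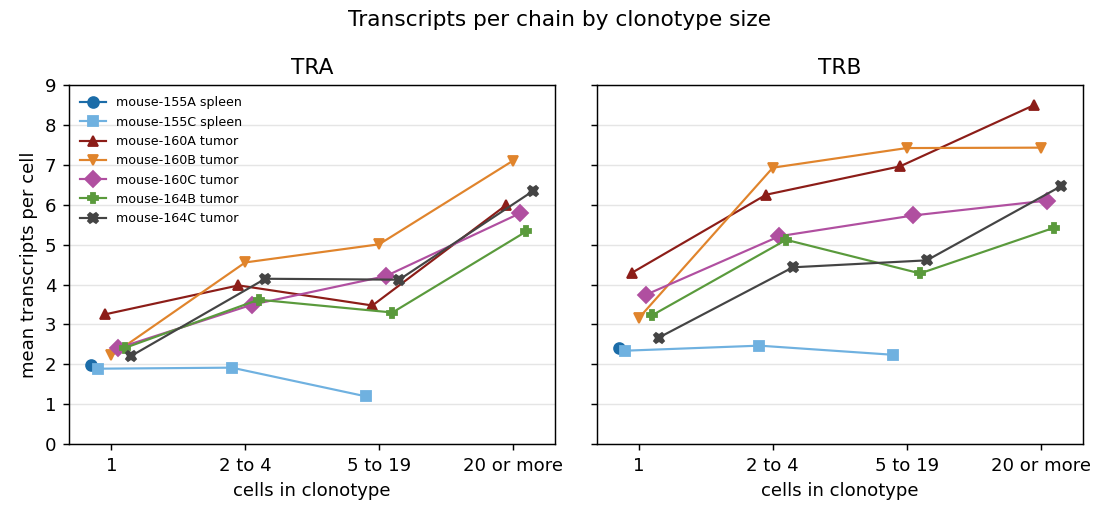
Mean transcripts per cell (vertical axis) of TRA (left) and TRB (right) for cells in clonotypes of each size (horizontal axis), 1 line for each table, with classes of at least 20 cells shown and points shifted sideways for clarity. In tumor tables the mean in clonotypes of 20 or more cells is 5.33 to 7.10 for TRA, and spleen values lie between 1.2 and 2.47 over both chains.

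A second chain was listed more often in tumor. A second TRA was listed in 14.6% and 13.4% of spleen cells and 21.1% to 32.3% of tumor cells, and a second TRB in 12.2% and 11.8% against 24.05% to 28.6%, so the tissues were apart for both. Some second chains differed from the first by a single residue, 14.9% and 17.8% of second TRBs in spleen and 5.17% to 15.8% in tumor. Leaving those out, second TRBs were listed in 10.4% and 9.70% of spleen cells and 21.3% to 25.6% of tumor cells. Many second chains rested on a single transcript. For second TRAs these were 84.4% and 81.6% in spleen and 49.9% to 74.9% in tumor. For second TRBs they were 78.2% and 82.8% in spleen and 56.5% to 69.0% in tumor. Tumor cells also yielded more transcripts per chain, and the part of that in this gap was not tested. The multiplet share was higher in tumor as well, as given above, and the part of cells joined in 1 barcode was not tested. In mouse-164B, 52.6% of the cells in clonotypes of 20 or more listed a second TRA, against 17.98% to 32.5% in the other tumor tables, and this table holds the dual-alpha cells described above. With every cell that listed a second chain left out, the tissues were still apart in distinct clonotypes, in single-cell share and in transcripts of both chains, but by less. The difference of the medians was then -301 distinct clonotypes at a depth of 1069 cells, -33.7 percentage points in single-cell share, 0.94 TRA transcripts and 1.22 TRB transcripts.

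Few clonotypes were shared between spleen and tumor tables. A spleen and a tumor table shared 1 to 9 clonotypes in each of the 10 pairs. These were 22 distinct clonotypes, 18 of them in 1 pair only, and 30 when counted once for each pair. The 2 spleen tables shared 3. Each was found in single spleen cells, and some were large in tumor: 2 shared clonotypes of mouse-155A spleen and mouse-164B tumor had 1008 cells in the tumor. Those are the clonotypes that share a beta chain, at 1 cell each in the spleen of another animal. Over the whole series the larger of them was listed in 6 other tables and the smaller in 7. No full barcode occurred in 2 tables, but in 5 of those 30 cases the cells of both tables agreed in sublibrary and in all barcode rounds but the first. Clonotypes seen in more than 1 animal of the series, thymus tables included, held 0.481% and 1.23% of spleen cells. In tumor they held 43.8% of cells in mouse-160A, 24.1% in mouse-160C, 23.4% in mouse-164B, 15.004% in mouse-164C and 2.98% in mouse-160B, since a single matching cell elsewhere is enough for a large clonotype to count. Whether such clonotypes are receptors present in several animals or cells listed under another animal's table was not tested. Leaving them all out, which takes the largest clonotype of 4 tumor tables with it, kept the tissues apart in distinct clonotypes, in single-cell share and in transcripts of both chains. The difference of the medians in single-cell share was then -25.3 percentage points at a depth of 1018 cells, that in mean TRA transcripts 0.95, and the V and J genes apart by cells fell from 6 to 3 each.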

How the data were processed

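CD8+ T cells were isolated from spleen with a CD8a+ T cell kit. Tumors were digested, dead cells were removed and CD8+ cells were taken with microbeads for tumor-infiltrating cells. Cells of all tables were barcoded together by split pooling (Parse Evercode TCR) and divided into 8 sublibraries, which are the samples of the series and hold cells of every table, so the sublibraries form no groups here and the table, 1 tissue of 1 animal, was the unit. The authors ran the TCR pipeline of Parse Biosciences against GRCm39 per the labels. Neither its version nor the gene segment reference behind it was given in the sources used here. For each cell and chain, the barcode tables as deposited hold raw transcript counts (molecules) and read counts that were not normalized. The deposited clonotype tables give each clonotype's cell count and its fraction of the table's cells, and every clonotype count of the 7 tables equalled the tally of counted barcodes. Receptor annotation, used for nucleotide CDR3s, covered 100% of counted cells in 6 tables and 29.8% in mouse-164C tumor. Gene positions are those of the GENCODE annotation of GRCm39, matched by name without the copy suffix.

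Barcodes with no multiplet mark and both CDR3s were kept, and doublets were treated by that mark alone. Values at 1382 cells are exact expectations of random draws, or means over 500 draws where named. Shares by clonotypes weight each clonotype by its chance of being drawn. Genes were kept at a median share of 1% over the 7 tables. Named were the 3 leading genes per locus, genes and residues apart both by cells and by clonotypes, the TRAV and TRBV gene of each tumor table with the highest ratio to the higher spleen share among genes of at least 5% there, and the 2 largest clonotypes of each table, from which the printed CDR3s were picked; TRBV19, TRAJ27, TRBJ1-1 and the CDR3 lengths were picked after their values were seen. No test between the tissues was run, and tumor tables far from the rest were sought with Dixon's gap-to-range limit. The members and lists were chosen with earlier results of these data known. Formulas were tested on simulated data. Python 3.11.15, numpy 2.4.6, pandas 2.3.3, scipy 1.17.1 and matplotlib 3.10.9 were used. Alternatives covered the clonotype definition, transcript minimum, multiplets, depth, secondary chains, gene copies and each table and sublibrary left out. Thymus tables served only to find clonotypes of several animals.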

Additional observations from a re-analysis of the deposited data

Results flagged for a closer look

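Among the 5 tumor tables, 36 values were checked for a table far from the rest, taken as a gap to the nearest table of over 0.71 of the whole range (Dixon's 95% limit for 5 values, which chance alone passes in about 5% of groups not chosen for their values). The spleen had too few tables for this check. Of the 36, 8 stood out. They share clonotypes and tables, so they are not independent, and TRAV14-3, TRBV23_1, TRAV6-5_1, TRAV3-3_1 and TRBV20 had been picked for a high share in the table named here, so that for these genes the check restates the choice and the chance rate does not apply. The inverse Simpson number of mouse-160B was 1498, and the nearest tumor table had 137. The mean TRB CDR3 of mouse-160A cells was 13.46 amino acids long against 13.83 in the nearest table. In mouse-160A, TRAV14-3 was used by 17.4% of cells against 2.09% in the nearest, TRBV13-2 by 22.6% against 11.7% and TRBV23_1 by 11.5% against 0.519%. TRAV6-5_1 in mouse-160C was used by 12.9% against 2.89%, TRAV3-3_1 in mouse-164B by 15.2% against 3.08%, and TRBV20 in mouse-164C by 7.55% against 1.27%.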

How the results depend on the processing

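In 32 alternative settings, 487 of 519 values stayed within a limit, 32 moved by more, and none changed sign where the tissues had been apart. The limit was the spread between tables of one tissue. For counts of genes it was 1.5 times, and for TRBV distances it was the SD over the spleen-tumor pairs. Some values could not move because the setting does not touch them, such as lengths by cells under another clonotype definition. Tissues were apart in every setting computed for distinct clonotypes, single-cell share and inverse Simpson number (28 of 28) and for TRA and TRB transcripts (29 of 29). In each case 7 of these settings left out 1 table, and ranges that are apart cannot meet when a table is removed. Settings that only redefine clonotypes or lower the depth cannot change transcripts per cell. For these settings the outcome was fixed in advance. The settings added after the data were seen were CDR3s running from C to F or W, near clonotypes joined, clonotypes linked by secondary chains joined, single cells with a chain of a large clonotype left out, and cells of single-cell clonotypes alone.

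The difference of the medians in inverse Simpson number, -20265 as reported, was -12326 for clonotypes defined by the TRB CDR3 alone, -31090 with at least 2 transcripts in each chain, -29461 without sublibrary 3, and -31667 to -8864 when 1 table was left out. That in distinct clonotypes was -183 with at least 2 transcripts, where the depth was 409 cells and the share of cells with 1 transcript cannot be computed. That in mean TRA transcripts, 1.64 as reported, was 2.44 with multiplets kept and 0.46 in cells of single-cell clonotypes, where the 1-transcript share differed by -3.56 instead of -10.6 percentage points. V genes apart by cells, 6 as reported, numbered 10 when weighted by transcripts, 12 with no minimum share, 3 without clonotypes of several animals, and 7 to 10 when 1 table was left out. V genes apart by clonotypes, 5 as reported, numbered 10 for TRB CDR3 alone, 8 with at least 2 transcripts, with no minimum share and without sublibrary 7, 3 with TRAV copies merged and without sublibrary 1, and 5 to 16 when 1 table was left out. J genes apart by cells, 6 as reported, numbered 3 in cells with 1 chain of each kind and 3 without clonotypes of several animals. J genes apart by clonotypes, 4 as reported, numbered 2 without sublibrary 1 and 5 to 13 when 1 table was left out. Fewer tables make ranges narrower, so more genes come apart by construction; the cause of the other moves was not tested. No paired analysis was possible because no animal gave both tissues. The 1382 cells of the shallowest table limit all values at one depth.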
